A study of Mus musculus with 10 samples.

Results

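The genes described here are 10 genes of bone morphogenetic protein (Bmp) signalling at the dorsal midline of the embryonic forebrain: the ligands Bmp4, Bmp5, Bmp6 and Bmp7, and the genes Msx1, Msx2, Id1, Id2, Id3 and Lmx1a. They were chosen by name, with earlier results of these data known, and all 10 have a row among the 14796 named genes of the deposited table. They were measured by RNA sequencing of the telencephalon, from which cortex and basal ganglia arise, in mouse embryos at embryonic day 12. Of 10 samples, 2 had a null allele of Polr1a and are set against wild types 1 and 2, whose titles carry the same number (the null set), while 3 had the missense allele C1559F of Polr1a and are set against wild types 3, 4 and 5, whose titles carry another number (the missense set). Polr1a encodes the main catalytic subunit of RNA polymerase I, which makes ribosomal RNA. Zygosity, strain and litter were not given in the labels, nor what the title numbers stand for, so whatever these numbers mark cannot be told apart from a difference between the sets, and p-values measure only the spread between these samples.

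Bmps are secreted dimers of the TGF-beta family. They bind pairs of type I and type II serine/threonine kinase receptors, which phosphorylate Smad1, Smad5 and Smad9. These enter the nucleus with Smad4 and switch on target genes, among them the Id genes and the Msx homeobox genes. In the forebrain the ligands are made at the roof plate and, later, by the cortical hem and choroid plexus at the medial edge of the cortex, where they act against the fates of the more lateral cortex. Several of the 10 genes are also active in head mesenchyme, meninges, vessels and surface ectoderm.

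Promoter sequences are shown to place the letters that Smad proteins are known to bind beside genes that were higher together in the null samples. RefSeq promoters of build GRCm38.p6, which is not the GRCm39 build named in the submitters' processing notes, matched 8 of the 10 genes. Bmp7 and Id1 were not matched. The window searched was the 250 bases before each annotated start. In 4 of the 8 genes (Bmp6, Msx2, Id2 and Id3) the window shares a stretch of 20 bases with a longer GENCODE transcript of the gene, and the other 4 are printed 5′ to 3′ on the strand of the gene, with matches in capitals.
Bmp4 (chr14:46390670-46390919, minus strand): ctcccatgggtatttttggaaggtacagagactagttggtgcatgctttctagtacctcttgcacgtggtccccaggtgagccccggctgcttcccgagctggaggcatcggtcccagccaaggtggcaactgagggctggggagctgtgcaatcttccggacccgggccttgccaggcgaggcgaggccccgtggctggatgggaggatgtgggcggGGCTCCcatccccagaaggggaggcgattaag
Bmp5 (chr9:75775115-75775364, plus strand): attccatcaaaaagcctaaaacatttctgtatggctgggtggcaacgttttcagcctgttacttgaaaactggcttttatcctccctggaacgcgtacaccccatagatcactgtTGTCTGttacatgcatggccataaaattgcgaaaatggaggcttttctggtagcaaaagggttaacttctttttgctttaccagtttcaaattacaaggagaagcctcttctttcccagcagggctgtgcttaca
Msx1 (chr5:37824586-37824835, minus strand): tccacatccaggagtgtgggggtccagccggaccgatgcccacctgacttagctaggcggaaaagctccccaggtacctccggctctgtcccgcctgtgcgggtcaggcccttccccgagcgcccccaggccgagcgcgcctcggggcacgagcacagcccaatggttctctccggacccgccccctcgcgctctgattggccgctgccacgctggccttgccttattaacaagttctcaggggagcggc
Lmx1a (chr1:167689308-167689557, plus strand): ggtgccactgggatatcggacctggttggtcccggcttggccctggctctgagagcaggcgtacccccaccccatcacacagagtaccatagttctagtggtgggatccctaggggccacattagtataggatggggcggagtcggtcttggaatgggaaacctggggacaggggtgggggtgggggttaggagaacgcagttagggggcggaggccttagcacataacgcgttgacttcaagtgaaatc
The motifs searched, on both strands, were the GC-rich element GGCGCC, its relative GGAGCC, the Smad element CAGACA and the palindrome GTCTAGAC. The Bmp4 window holds GGAGCC, read as GGCTCC on the gene's strand, 32 bases before the start, and the Bmp5 window holds CAGACA, read as TGTCTG, 135 bases before the start. The printed windows of Msx1 and Lmx1a hold none of the 4 motifs. GGAGCC was present in 4 of the 8 windows, Bmp4, Msx2, Id2 and Id3, and in 26.0% of all 32851 windows of 27025 genes in the RefSeq set. GGCGCC was present in 1 of the 8 (Id2) and 9.59% of all windows, CAGACA in 1 of the 8 (Bmp5) and 17.1% of all windows, and GTCTAGAC in 0 of the 8 and 0.167% of all windows. The 4 motifs do not overlap each other at any of these matches, and a match describes letters only.

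Values are the authors' filtered and normalized log2 values, which behave like log2 CPM (reads scaled to the total of each sample), and the depth of each library is unknown. Whether they were adjusted for gene length is not given in the sources used here, so levels were compared between samples and not between genes. Polr1a averaged 4.91 ± 0.12 in null samples and 5.38 ± 0.00396 in wild types of the null set (SD, n = 2 each), and 5.51 ± 0.37 in missense samples and 5.59 ± 0.07 in wild types of the missense set (SD, n = 3 each). Emx1, a homeobox gene that marks the dorsal telencephalon, was present in every sample, at 5.59 and 5.64 in null samples against 5.62 and 5.79 in wild types 1 and 2, and at 5.85, 5.45 and 5.74 in missense samples against 5.90, 5.84 and 5.76 in wild types 3, 4 and 5.

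All 10 genes were higher in both null samples than in both wild types of the null set, where 22.9% of all genes tested were higher without overlap and 54.6% had a positive change. The median log2 change of the 10 genes was 0.71, against 0.03 for all genes. Because the genes were chosen with earlier results of these data known, these shares are a description and not a test. With limma and Benjamini-Hochberg adjustment over all 14796 genes, 0 of the 10 passed an adjusted p of 0.05, where 0.162% of all genes did, and 8 of the 10 had an unadjusted p under 0.05 and were higher, where 5.04% of all genes were. That number was smaller without null 2 or without wild type 2, in fits that leave 1 sample in a group. The median was then 0.62 and 0.67. In an exact 2-sided permutation test each gene had p = 0.333, the smallest that 2 samples against 2 allow. Summed markers of choroid plexus, head mesenchyme, vessels, surface epithelium, microglia and diencephalon were also higher in both null samples, with the values given with the marker lists, and their part in these changes was not tested. A change in the number of cells of a type and a change in RNA per cell cannot be told apart in these bulk samples.

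**Figure D1:**
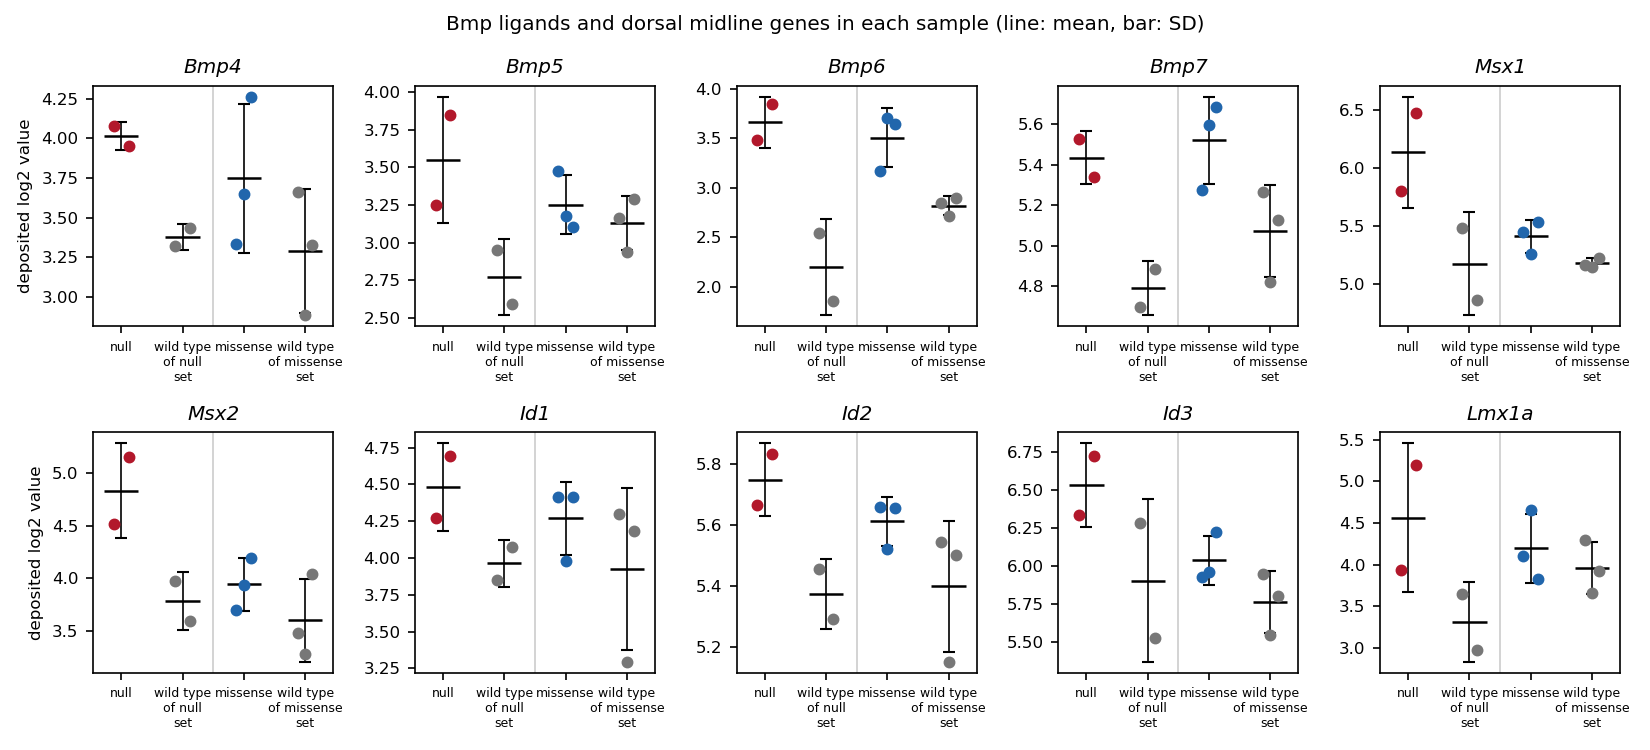
Deposited log2 value of each gene (vertical axis, its own range per panel) in each sample, by group. Points are samples, horizontal lines are means and bars are SD; the null points lie above the wild types of the null set in all 10 panels, and the missense points lie above the wild types of the missense set without overlap for Bmp6, Bmp7 and Msx1.

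Of the ligands, Bmp6 differed most in the null samples. Bmp6, a ligand of the subgroup that also holds Bmp5 and Bmp7, had log2 values of 3.48 in null 1 and 3.84 in null 2, against 2.54 in wild type 1 and 1.85 in wild type 2. The 2 wild types differed from each other by more than the 2 null samples did, and the gap between the groups was still wider than either spread. The log2 change of Bmp6 was 1.46 (SE 0.30, 2.76-fold, limma adjusted p = 0.128), and Bmp6 ranked 60 of all genes by p. Its adjusted p was 0.563 without null 2 and ran from 0.103 to 0.563 over all alternatives.

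Bmp4, the ligand closest in sequence to Bmp2, had values of 4.08 in null 1 and 3.95 in null 2, against 3.32 in wild type 1 and 3.44 in wild type 2. The pairs were tight and did not overlap, and the log2 change was 0.64 (SE 0.32, limma adjusted p = 0.665), while the missense set, which shares the estimate of the spread, varied more in this gene. Bmp7 had 5.53 in null 1 and 5.34 in null 2, against 4.69 in wild type 1 and 4.88 in wild type 2. It was the ligand with the smallest SE, at a log2 change of 0.65 (SE 0.19, adjusted p = 0.325). Bmp4 and Bmp7 were the 2 genes of the 10 that were higher in null 1 than in null 2. Bmp5, which in mice is mutated in short ear, had 3.25 in null 1 and 3.85 in null 2, against 2.95 in wild type 1 and 2.59 in wild type 2, a log2 change of 0.78 (SE 0.28, adjusted p = 0.456) that was 0.48 without null 2.

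Among the genes that respond to Bmps, the Msx pair was about 2-fold higher in the null samples. Msx1, a homeobox repressor, had 5.80 in null 1 and 6.47 in null 2, against 5.49 in wild type 1 and 4.86 in wild type 2. Null 1 lay closer to wild type 1 than to null 2. The log2 change was 0.96 (SE 0.24, 1.95-fold, limma adjusted p = 0.205), and 0.63 without null 2. Its paralogue Msx2 had 4.51 in null 1 and 5.15 in null 2, against 3.98 in wild type 1 and 3.60 in wild type 2, with the same order of samples as Msx1 and a log2 change of 1.04 (SE 0.30, 2.06-fold, adjusted p = 0.328).

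The Id genes encode helix-loop-helix proteins without a DNA-binding region, which hold back proneural factors of the basic helix-loop-helix class. Their changes in the null samples were the smallest of the 10 genes, with Bmp4 and Bmp7 close above Id3. Id3 had 6.34 in null 1 and 6.73 in null 2, against 6.28 in wild type 1 and 5.53 in wild type 2, a log2 change of 0.63 (SE 0.24, adjusted p = 0.482). Here null 1 and wild type 1 were nearly level, and without wild type 2 the change was 0.25, and without wild type 1 it was 1.01. Id1 had 4.27 in null 1 and 4.69 in null 2, against 3.85 in wild type 1 and 4.08 in wild type 2, with a log2 change of 0.52 (SE 0.32, adjusted p = 0.740) that was 0.31 without null 2. Id2 had 5.67 in null 1 and 5.83 in null 2, against 5.46 in wild type 1 and 5.29 in wild type 2, the smallest change of the 10 (0.37, SE 0.16, adjusted p = 0.551).

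Lmx1a, a LIM homeobox factor of the roof plate and cortical hem that is mutated in dreher mice, had 3.94 in null 1 and 5.20 in null 2, against 3.65 in wild type 1 and 2.98 in wild type 2. Null 2 stood well above the other samples, and null 1 lay closer to wild type 1 than to null 2. The log2 change was 1.25 (SE 0.41, 2.38-fold, limma adjusted p = 0.412), and it was 0.62 without null 2 and 1.88 without null 1.

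**Figure D2:**
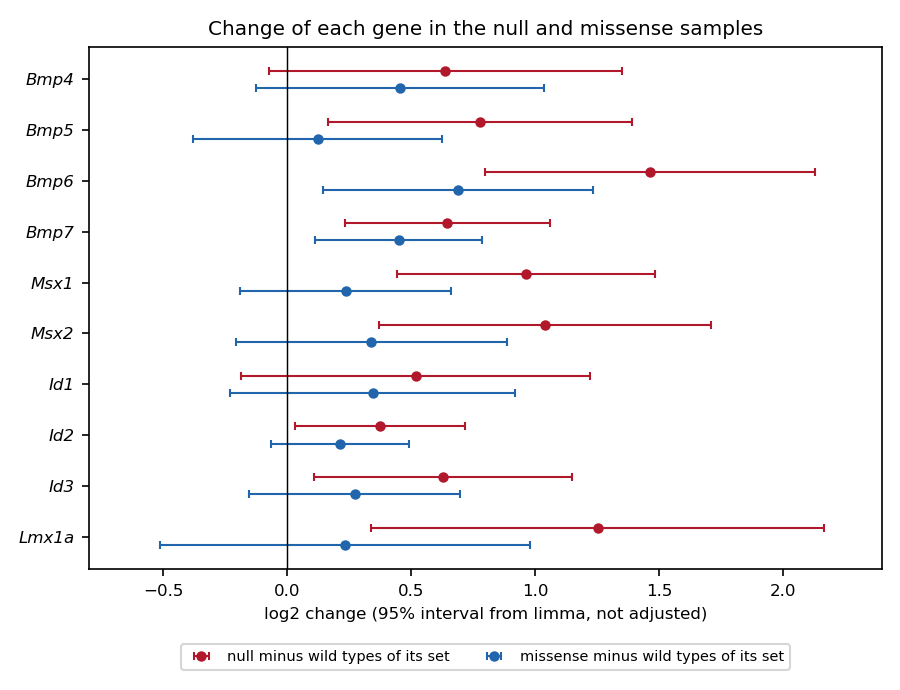
Log2 change of each gene (horizontal axis) with its 95% interval from limma, not adjusted for the number of genes, in null samples (red) and missense samples (blue), each against the wild types of its set. The null interval lies above 0 for 8 genes, all but Bmp4 and Id1, and the missense interval for Bmp6 and Bmp7.

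In the missense samples the 10 genes again had positive log2 changes, with smaller values. All 10 means were higher in missense samples than in wild types 3, 4 and 5, where 54% of all genes were higher, and the median log2 change was 0.31, against 0.02 for all genes. Of the 10, 3 (Bmp6, Bmp7 and Msx1) were higher without overlap, where 6.02% of all genes were. In limma 0 of the 10 passed an adjusted p of 0.05, where 0.0203% of all genes did, and 2 (Bmp6 and Bmp7) had an unadjusted p under 0.05, where 3.2% of all genes were higher at that p. Wild type 4 was the lowest of the 6 samples for all 10 genes. Without it the median log2 change was 0.17 and all 10 changes stayed positive. In that fit 1 of the 10 had an unadjusted p under 0.05 in limma, where 707 of all 14796 genes did in either direction. Without missense 3 the median was 0.21 and 0 of the 10 had an unadjusted p under 0.05 in limma.

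Bmp6 was again the ligand with the largest change. It had 3.17, 3.71 and 3.64 in missense 1, 2 and 3, against 2.84, 2.71 and 2.90 in wild types 3, 4 and 5. The wild types were tight, and all 3 missense samples lay above them, at a log2 change of 0.69 (SE 0.25, 1.61-fold, limma adjusted p = 0.884; exact 2-sided permutation p = 0.1, the smallest that 3 against 3 allow). Bmp7 had 5.28, 5.60 and 5.69 in missense 1, 2 and 3, against 5.27, 4.82 and 5.12 in wild types 3, 4 and 5. Missense 1 and wild type 3 were nearly level, and the log2 change was 0.45 (SE 0.15, 1.37-fold, limma adjusted p = 0.884). Msx1 had 5.44, 5.26 and 5.54 in missense 1, 2 and 3, against 5.16, 5.14 and 5.22 in wild types 3, 4 and 5, a change of 0.24 (SE 0.19, limma adjusted p = 0.929).

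For the other 7 genes the missense samples and wild types overlapped. Bmp4 had 3.33, 3.65 and 4.26 in missense 1, 2 and 3, against 3.66, 2.88 and 3.33 in wild types 3, 4 and 5, a change of 0.46 (SE 0.26, adjusted p = 0.902 in limma) that rested mostly on missense 3 and wild type 4. The change of Id1 was 0.34 and, without wild type 4, 0.03, and that sample, at 3.29, lay about a log2 unit below wild types 3 and 5 (4.30 and 4.18). Id1 had 4.41, 3.98 and 4.42 in missense 1, 2 and 3. Msx2 had 3.70, 3.94 and 4.19 in missense 1, 2 and 3, against 3.48, 3.29 and 4.05 in wild types 3, 4 and 5, a change of 0.34 (SE 0.25). Wild type 5 lay above missense 1 and 2 in that gene. Id2 had 5.66, 5.52 and 5.66 in missense 1, 2 and 3, against 5.55, 5.15 and 5.50 in wild types 3, 4 and 5, and Id3 had 5.93, 5.96 and 6.22 in missense 1, 2 and 3, against 5.95, 5.54 and 5.80 in wild types 3, 4 and 5. Of these, the changes were 0.21 (SE 0.13) for Id2 and 0.27 (SE 0.19) for Id3, with 1 wild type, wild type 3, inside the missense range in each. Lmx1a had 4.10, 4.65 and 3.83 in missense 1, 2 and 3, against 4.29, 3.66 and 3.93 in wild types 3, 4 and 5, a change of 0.23 (SE 0.34). Missense 3, the highest sample of its set for 6 of the 10 genes, lay below wild types 3 and 5 in Lmx1a. Bmp5 had 3.47, 3.18 and 3.10 in missense 1, 2 and 3, against 3.16, 2.94 and 3.29 in wild types 3, 4 and 5, the smallest missense change of the 10 (0.12, SE 0.23, limma adjusted p = 0.960). These changes moved with single samples. Without wild type 4 they were 0.25 for Bmp4, 0.18 for Msx2, 0.089 for Id2, 0.16 for Id3, 0.084 for Lmx1a and 0.027 for Bmp5. The lowest change of Lmx1a was 0.0052, without missense 2, and that of Bmp5 was 0.012, without missense 1.

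**Figure D3:**
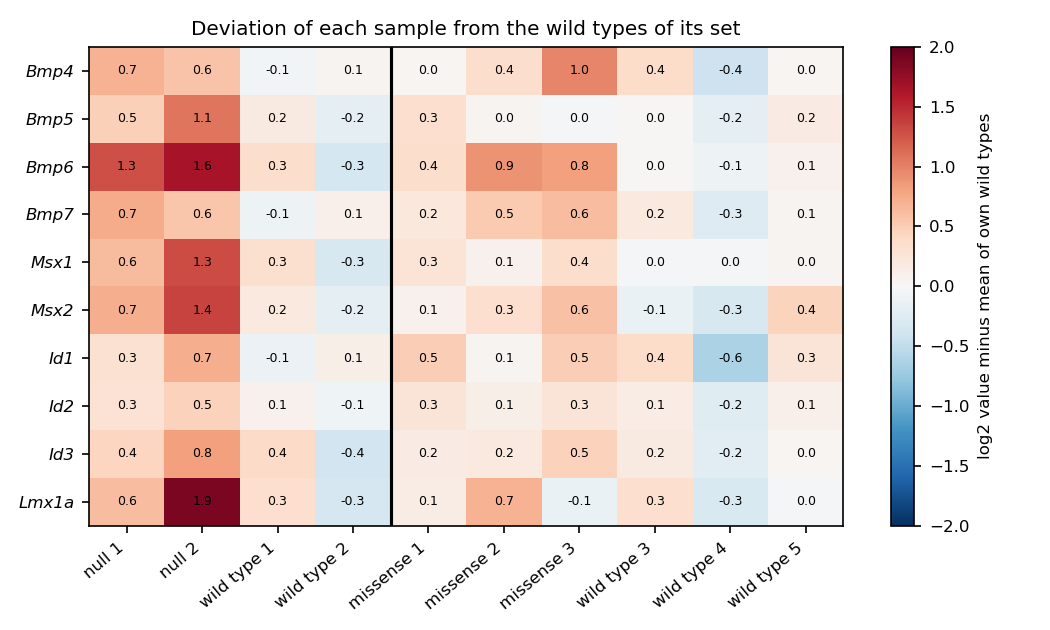
Log2 value of each sample minus the mean of the wild types of its set, for the 10 genes (rows) and 10 samples (columns, the null set left of the line and the missense set right of it). Null 2 was the highest sample of its set for 8 genes and wild type 2 the lowest for 7, and in the missense set missense 3 was the highest for 6 genes and wild type 4 the lowest for all 10.

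The null change was larger than the missense change for each of the 10 genes, where 51.5% of all genes had a larger null change, and the test of that difference called none of them. The median of the differences was 0.51 on the log2 scale, against 0.01 for all genes. For the difference 1 of the 10, Msx1, had an unadjusted p under 0.05 (0.73, SE 0.30, limma unadjusted p = 0.0362), where 2.22% of all genes were larger in null at that p and 0.0135% of all genes passed an adjusted p of 0.05. The intervals were wide: for Lmx1a the difference was 1.02 with a 95% interval of -0.16 to 2.20, and for Bmp4 it was 0.18 with an interval of -0.74 to 1.10. Between the wild types of the sets the median difference of the 10 genes was 0.01, against 0.02 for all genes, with 6 higher and 4 lower in the missense set. Of the 10, 2 were higher there without overlap, a count near the share of all genes. Bmp6 was higher in wild types of the missense set than in wild types of the null set by 0.62 (SE 0.28, limma adjusted p = 0.671), and Lmx1a by 0.65 (SE 0.38, adjusted p = 0.754), both without overlap, where 13.7% of all genes were. Bmp6 averaged 3.66 ± 0.26 in null samples (SD, n = 2) and 3.51 ± 0.29 in missense samples (SD, n = 3), and these groups overlapped, while its wild types averaged 2.82 ± 0.09 in the missense set (SD, n = 3) and 2.20 ± 0.49 in the null set (SD, n = 2). Against all 5 wild types, the Bmp6 change in the null samples was 1.09 (limma adjusted p = 0.177), and the smallest adjusted p of the 10 genes was 0.0593, for Msx1. Null 1 lay below wild type 5 in Bmp5 (3.25 against 3.29). It lay below wild type 3 in Id1 (4.27 against 4.30) and Lmx1a (3.94 against 4.29), so these genes overlapped with all 5 wild types.

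Correlations between the 10 genes across samples are given as a description. After the mean of each title number was subtracted, the 45 pairs had Pearson correlations over the 10 samples from 0.37 (Bmp4 and Bmp5) to 0.92 (Bmp4 and Bmp7), with a median of 0.77. Genotype is part of this variation. With the mean of each of the 4 groups subtracted, the correlations ran from -0.37 to 0.90 with a median of 0.47, and 21 of the 45 were above 0.5. These values come from samples that share their libraries. Pairs of all genes were not compared, so neither the medians nor the count can be read as a trait of these 10 genes. Within the 10, Bmp4 went with Bmp7, while Bmp5 went with Msx1 (0.92) and Lmx1a (0.87). The within-group SD of the 10 genes had a median of 0.29 in null samples and 0.26 in their wild types, against 0.15 and 0.18 for all genes, and of 0.23 in missense samples and 0.22 in their wild types, against 0.20 and 0.18 for all genes.

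The genes whose pattern was most like each of the 10, over the same 10 samples, are given as a description. Nearest to Bmp4 were Cdh3 (0.96), a cadherin, then Eml4 and Zfp395. Nearest to Bmp5 were Wnt9a (0.94), a Wnt ligand, then Rap1b and Slc39a8. Nearest to Bmp6 were Mfhas1 (0.97), then Dkk2, a secreted Wnt regulator, and Fmod, a matrix proteoglycan. Nearest to Bmp7 were Sulf2 (0.97), a heparan sulfate sulfatase, then Anpep and Galk2. For Msx1 they were Ctsc (0.96), Rap1b and the water channel gene Aqp1, which is also in the choroid plexus list, and for Msx2 they were Ccbe1 (0.99), Klf6 and Ahnak. For Id1 they were Synpo2 (0.95), Trim3 and Gpkow, for Id2 Egfl7 (0.96), which is also in the endothelial list, Sulf1 and Mrpl37, and for Id3 Greb1 (0.97), Synpo and C1qtnf6. Spock3 (0.95) and Fbxl4 (0.95) were near Lmx1a. These correlations lay between 0.92 and 0.99, out of 10721 genes searched for each.

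The rest of the pathway was described by role. The list of other Bmp and Gdf ligands also holds the protease Bmp1 and the activin subunits Inhba and Inhbb. Of its 18 genes 11 had a row. Their median log2 change was 0.09 in null samples, with 8 higher, and 0.28 in missense samples, with 9 higher. None passed the adjusted threshold in limma in either comparison, and 2 in null and 0 in missense were higher at an unadjusted p under 0.05. For this and the following lists, the shares of all genes higher at that p were 5.04% in null and 3.2% in missense samples. Bmp2 had 2.94 and 2.87 in null samples, against 2.45 and 2.48 in wild types 1 and 2, a change of 0.43 (SE 0.27), and a change of 0.28 in missense samples, in both cases without overlap. Gdf5 had a change of 1.34 (SE 0.55) in null samples, with wild type 2 at -0.19, and 0.32 in missense samples. Without wild type 2 the null change of Gdf5 was 0.68. Bmp3 was listed at 2.72 and 2.71 in null samples, against 1.81 in wild type 1 and the lowest value of the table, -3.16, in wild type 2. Gdf11 (0.09 in null and 0.17 in missense) and Inhba (0.71 and 0.40) had overlapping groups.

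Receptors and Smads had medians near that of all genes. The 12 measured receptors and co-receptors had a median log2 change of 0.07 in null and 0.02 in missense samples, with 7 higher in each, and 0 passed in limma, where 1 in null and 0 in missense had an unadjusted p under 0.05. A count of 1 in 12 is near the share of all genes. That receptor was Eng, a co-receptor of endothelial cells, with 5.51 and 5.12 in null samples, against 4.28 and 4.87 in wild types 1 and 2 (change 0.74, SE 0.22, adjusted p = 0.348) and a change of -0.10 in missense samples. Acvr1, a type I receptor of Bmps, had changes of -0.04 in null and 0.22 in missense samples, Acvr1b of -0.22 and 0.04, Acvr2a of 0.06 and 0.19, and Acvr2b of -0.33 and -0.17.

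The 13 Smads and Smad regulators had medians of 0.04 in null and 0.06 in missense samples, with 0 past the adjusted threshold in limma and 1 in null and 3 in missense higher at an unadjusted p under 0.05. In missense samples these were the inhibitory Smads, which are themselves induced by the pathway and dampen it, and Pmepa1. Smad7 had 4.79, 4.73 and 4.36 in missense 1, 2 and 3, against 4.12, 3.80 and 4.18 in wild types 3, 4 and 5 (change 0.59, SE 0.17, adjusted p = 0.884). Smad6 had 4.10, 4.21 and 4.22 in missense 1, 2 and 3, against 3.49, 3.50 and 3.86 in wild types 3, 4 and 5 (change 0.56, SE 0.18, adjusted p = 0.884). For both genes the missense samples lay above the wild types without overlap, while in the null samples the changes were 0.09 for Smad7 and 0.24 for Smad6, with overlap. Pmepa1 had a change of 0.29 in missense and 0.04 in null samples. Zfp423, a zinc finger partner of Smads, had a change of 0.50 (SE 0.16, adjusted p = 0.400) in null and 0.15 in missense samples, and Smad9 of 0.51 and 0.22.

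Antagonists and other secreted or membrane modulators of Bmps lay on both sides of the wild types. Of 19 measured, 12 were higher in null samples (median 0.15). At an unadjusted p under 0.05 in limma 5 were higher and 2 lower, where 3.28% of all genes were lower, and 13 were higher in missense samples (median 0.14), with 2 at that p. In limma 0 passed the adjusted threshold. Bmper, which binds Bmps outside the cell, had 3.31 and 2.89 in null samples, against 4.18 and 4.42 in wild types 1 and 2, a change of -1.20 (SE 0.23, adjusted p = 0.101), and passed against all 5 wild types (-1.08, limma adjusted p = 0.0396). In missense samples Bmper had a change of -0.09. Fstl5 had a change of -0.91 (SE 0.30) in null and -0.01 in missense samples. Kcp, listed here as a modulator and not as a plain antagonist, had 0.75 in null and 0.89 in missense samples. The null change of Kcp was 0.20 without wild type 1 and 1.30 without wild type 2. Sostdc1, an antagonist of Bmps and Wnts, had 0.99 in null and 0.67 in missense samples, and Fstl1 had 0.43 and 0.27.

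**Figure D4:**
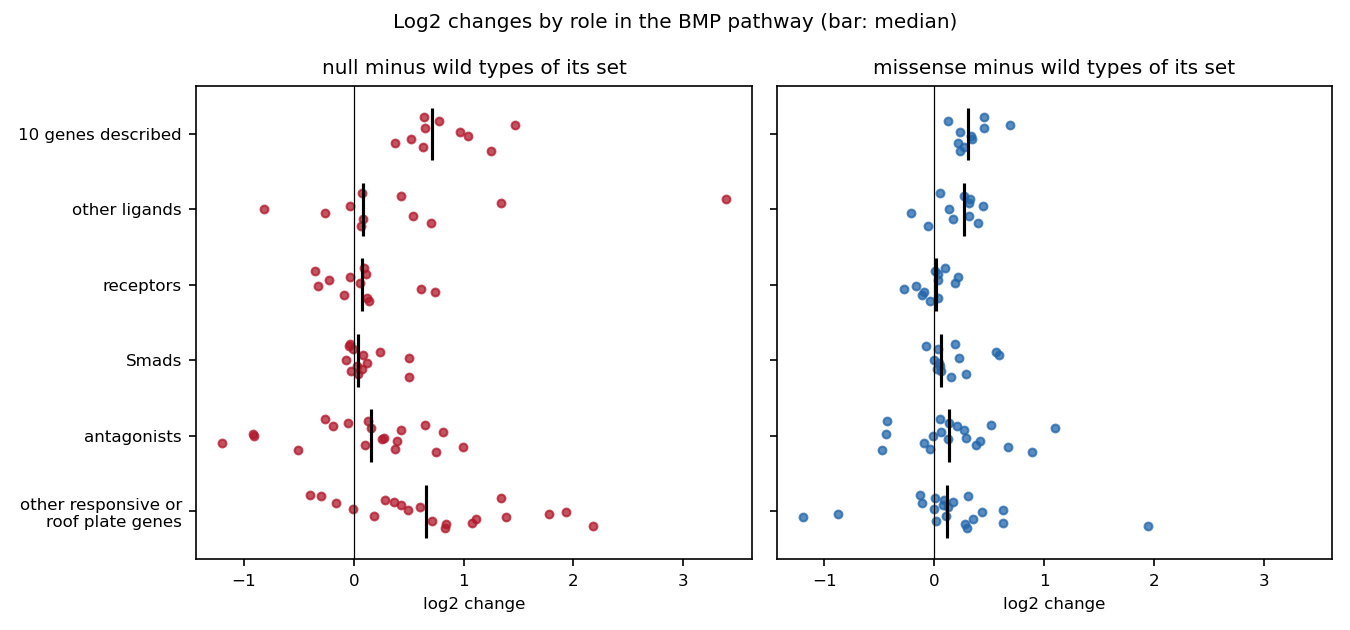
Log2 change of each measured gene (horizontal axis, points) in null samples (left) and missense samples (right), by role in the pathway, with the median of each role as a bar. In the null samples the medians of the 10 genes (0.71) and of other responsive or roof plate genes (0.66) stood above those of the other lists (0.04 to 0.15). The row of other ligands includes Bmp1, Inhba and Inhbb, and the row of antagonists includes other modulators. The row of other responsive or roof plate genes includes Wnt ligands and R-spondins, so its median is not a measure of Bmp response alone. The point farthest right is Bmp3, for which wild type 2 was at the lowest value of the table.

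Among other Bmp-responsive or roof plate genes, all 20 listed genes had a row. Their median log2 change in null samples was 0.66, with 16 higher. At an unadjusted p under 0.05 in limma 11 were higher and 1 lower, where 5.04% of all genes were higher and 3.28% lower, and 1 passed the adjusted threshold, where 0.162% of all genes did. That gene was Wnt8b, a Wnt ligand of the cortical hem, which rose by 1.08 (SE 0.14, limma adjusted p = 0.0220). Its call was lost without wild type 1 (0.0953), null 1 (0.0551), wild type 2 (0.0718) or null 2 (0.175), without the variance trend (0.0878) and with the null set alone (0.292). Wnt3a, a ligand of the cortical hem, had a change of 1.11 (SE 0.26, adjusted p = 0.165), Rspo3 of 0.83 (SE 0.14, adjusted p = 0.0597) and Rspo2 of 2.18 (SE 0.60), with wild type 2 at -0.24. Without wild type 2 the Rspo2 change was 1.12. Rspo3 passed without genes under the 25th percentile (0.0476), against all 5 wild types (0.0239), without missense 1 (0.0478) and without missense 3 (0.0368). In missense samples the median of the 20 was 0.12, with 15 higher, 3 at an unadjusted p under 0.05 and 0 past the adjusted threshold in limma. Rspo2 had 3.31, 3.53 and 3.59 in missense samples, against 1.90, 0.87 and 1.83 in wild types 3, 4 and 5 (change 1.94, SE 0.49), Wnt8b had a change of 0.63, Wnt3a of 0.36 and Rspo3 of 0.30, all without overlap.

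Markers of 6 other tissues or regions were also higher in both null samples than in wild types 1 and 2, and those of the ventral telencephalon were lower. Back-transformed to the linear scale and summed, 12 choroid plexus genes came to 202 to 227 in null samples, against 131 to 146 in wild types 1 and 2, with 11 of 12 higher. The 17 head mesenchyme and meninges genes came to 2868 to 3831 in null samples, against 1962 to 2314 in wild types, with 17 of 17 higher. The 14 endothelium and pericyte genes came to 373 to 485, against 335 to 342 in wild types (12 of 14 higher). The 11 surface and olfactory epithelium genes came to 61.3 to 62.2, against 29.1 to 35.4 in wild types (11 of 11 higher). The 12 microglia and macrophage genes came to 137 to 143, against 65.1 to 73.0 in wild types (12 of 12 higher), and the 11 diencephalon and midbrain genes to 596 to 641, against 306 to 342 in wild types (11 of 11 higher). The 12 ventral telencephalon genes came to 443 to 450, against 1023 to 1203 in wild types (0 of 12 higher). Of 10 listed dorsal telencephalon genes, the 9 reported here came to 1270 to 1368 in null samples, against 1238 to 1423 in wild types (5 of 9 higher), and overlapped. None of the measured markers was at the lowest value in every sample, and Ttr, the main product of choroid plexus, had 6.08 and 6.27 in null samples, against 5.50 and 5.47 in wild types 1 and 2. Wild types 3, 4 and 5 had 6.42, 6.32 and 6.82, above both null samples. The choroid plexus list had a median change of 0.66 in null samples, and of 0.65 between the wild types, higher in the missense set. For the other lists higher in null samples the median difference between wild types was smaller than the null change. The part of these tissues in the values of the 10 genes was not tested.

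In the missense set most of these sums overlapped. Choroid plexus genes came to 199 to 284 in missense samples, against 204 to 234 in wild types 3, 4 and 5 (10 of 12 higher). Head mesenchyme genes came to 2602 to 3554, against 2053 to 3379 in wild types (16 of 17 higher), endothelial genes to 358 to 466, against 379 to 411 (7 of 14 higher), epithelial genes to 54.8 to 137, against 40.8 to 68.7 (11 of 11 higher), and diencephalon and midbrain genes to 304 to 507, against 307 to 545 (6 of 11 higher). Microglia and macrophage genes, at 109 to 137 in missense samples against 81.3 to 103 in wild types (9 of 12 higher), did not overlap, nor did ventral telencephalon genes, at 759 to 806 in missense samples against 904 to 1013 in wild types (1 of 12 higher). The 9 dorsal telencephalon genes came to 1084 to 1411 in missense samples, against 1281 to 1437 in wild types (2 of 9 higher, 7 lower, 2 of these at an unadjusted p under 0.05 and 0 past the adjusted threshold in limma), and overlapped. Missense 3 held the highest choroid plexus (284), mesenchymal (3554), endothelial (466), epithelial (137) and microglial (137) sums of its set. Wild type 4 held the lowest mesenchymal (2053), epithelial (40.8) and microglial (81.3) sums, and missense 2 the lowest choroid plexus (199) and endothelial (358) sums. For diencephalon and midbrain wild type 4 was the highest (545) and missense 3 the lowest (304). The part of these tissues in the missense values was not tested.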

How the data were processed

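RNA from the telencephalon of 10 mouse embryos at embryonic day 12 was measured by RNA sequencing. The deposited table holds log2 values that the authors filtered and normalized, as its name states. The back-transformed values of the named genes sum to between 1000453 and 1000891 in each sample, with a shared lowest value of -3.16, as log2 CPM with a small offset would. The genome build, GRCm39, is per the submitters' processing notes; the aligner, the counting tool and the annotation were not given in the sources used here. Of 14797 genes, 1 has no name and was left out.

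A linear model with 4 groups (null, missense and the wild types of each title number) was fitted to all 14796 genes in R 4.3.3 by limma 3.58.1, using a variance trend, 6 residual and 4.83 prior degrees of freedom, 2-sided tests and Benjamini-Hochberg adjustment over all genes. The model was tested on simulated data. The 10 genes and all lists were chosen with earlier results of these data known. Besides the 10 genes, the text names genes of each pathway list that passed in a comparison, up to 3 with the smallest p in each mutant, and the 3 genes most correlated with each of the 10 at or above the 25th percentile of level, leaving out predicted genes and pseudogenes. Some genes that meet these rules are not reported here. Alternatives were no title-number term, other scalings, a filter, a pseudocount of 1, other variance models, 1 set alone and leaving out each sample. The R package data.table, version 1.17.8, read the values, and Python 3.11.15, pandas 2.3.3 and matplotlib 3.10.9 drew the figures.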

Additional observations from a re-analysis of the deposited data

How the results depend on the processing

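All 10 genes kept a positive change in null and in missense samples under each of the 18 alternatives, and none passed the adjusted threshold. Their median change was 0.62 to 0.98 in null and 0.17 to 0.38 in missense samples when 1 sample was left out. The number of all genes called in null samples was 59 without the title-number term (each mutant against all 5 wild types), 6 without the variance trend, 0 with the null set alone in limma (1101 at an unadjusted p under 0.05), and 2 to 23 with 1 sample left out. It was 2 to 10 in missense samples with 1 sample left out. For the difference between the changes it was 9 without the title-number term, 1 after median centring, 0 without the trend in limma (646 at an unadjusted p under 0.05), and 1 to 10 with 1 sample left out. Between the wild types it was 8 without genes under the 25th percentile and 7 to 21 with 1 sample left out. Without the title-number term the sign turned for Acvr1 in null (0.0163), Eng (0.035) and Acvr1b (-0.011) in missense samples, and Bmp7 in the difference (-0.086). With 1 sample left out the sign turned within these ranges: in null, Gdf11 -0.071 to 0.25, Acvr1 -0.15 to 0.078, Smad7 -0.058 to 0.23 and Pmepa1 -0.058 to 0.13; in missense, Gdf5 -0.064 to 0.56, Inhba -0.067 to 0.69, Acvr1b -0.027 to 0.095, Smad9 -0.0068 to 0.59, Bmper -0.18 to 0.040 and Fstl5 -0.26 to 0.22; in the difference, Bmp4 -0.027 to 0.44, Id1 -0.035 to 0.49 and Id3 -0.023 to 0.73. Bmp3 passed in null without wild type 1 (5.87, limma adjusted p = 0.00210), where wild type 2 at the lowest value was the remaining wild type of its set. The causes were not tested. The correlations with nearest genes stayed at or above 0.796 under 13 alternatives. Those genes were picked as the highest of 10721 over the same 10 samples, so these refits are no test of the correlations. A fit that left 1 sample in a group took it to vary like the others. No paired analysis was possible because the labels give no litter or pair for any sample. The depth of the libraries is unknown, so it sets no stated limit here.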
